A study of Mus musculus with 4 samples.

Results

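ETS factors are transcription factors that share one DNA-binding fold, the ETS domain, and read sites built around the letters GGAA. The 10 members described here are those best known from blood stem and progenitor cells, namely Etv6, Elk3, Fli1, Erg, Elf1, Elf2, Elf4, Spi1, Ets1 and Ets2. They were chosen by gene name, as every probe set whose annotation gave exactly 1 gene symbol, one of these. That gave 11 of the 35556 probe sets in the table, 1 for each gene and 2 for Elf4, and 10 of the 19938 genes with such a probe set.

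The study asked how gene expression in blood stem cells depends on GABPα, itself an ETS factor, encoded by Gabpa. Expression was measured on 4 GeneChip Mouse Gene 1.0 ST arrays, which carry probes along whole transcripts, with 2 arrays of each genotype. The control mice were Mx1Cre-GABPa(FL/+), with 1 floxed and 1 wild-type allele, and the mice labelled deficient were Mx1Cre-GABPa(FL/-), with 1 floxed and 1 null allele. All carried the Mx1-Cre transgene, whose promoter responds to interferon in many cell types, and all were given pIpC, a synthetic double-stranded RNA that induces interferon and so switches on Cre. The controls were thus neither untreated nor free of a floxed allele. The mice were 6 to 8 weeks old and had been crossed to C57BL/6 for 4 generations. Bone marrow was taken 4 days after the last pIpC dose, and cells of the LSK gate (c-Kit and Sca-1 on the surface, no lineage markers) that lacked Flt3 protein were sorted from it, which enriches for stem cells. Nothing in the labels tells whether each sample came from 1 animal or a pool, so a p-value here covers no more than the spread among these 4 samples, which may be technical.

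In blood formation ETS factors act at many levels. FLI1 and ERG bind the enhancers of stem cells together with GATA2, RUNX1, TAL1, LYL1 and LMO2, and FLI1 is also needed for platelet formation. ETV6 is a repressor that adult stem cells need to persist, and PU.1, the product of Spi1, directs myeloid and lymphoid fates by its dose. GABP binds DNA through its α subunit and activates through its β subunits.

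The targeted gene, Gabpa (10436678), stood at 8.43 and 7.28 for the controls and at 6.43 and 7.85 for the arrays labelled deficient. The groups overlapped, with deficient replicate 2 above control replicate 2. The sources used here do not place this probe set relative to the deleted exons, and it may lie outside them, so the word deficient below repeats the labels and was not checked by it. Each array's median over all probe sets lay between 5.87 and 6.01. The lower quartile was 4.68 and 4.73 for the controls and 4.77 and 4.86 for the deficient arrays. The upper quartile was 7.39 and 7.33 against 7.24 and 7.18, so the values of the deficient arrays were less spread out. Of the genes of the sorting gate and of the surface of stem or progenitor cells, 6 had a single-gene probe set and are given here. Among these, Kit was the only receptor that the gate selected for, and Flt3 was one that it excluded. The others, Cd34 and Cd48 among them, are surface genes of stem or progenitor cells outside the gate. Ly6a, which encodes Sca-1, had no such probe set. All 6 were lower for the deficient arrays, 5 of them at an unadjusted p under 0.05 in limma, as were 5.25% of all probe sets. The list's median log2 level was 8.98 and 9.16 for the controls against 7.04 and 7.06. Kit itself, the gate's own receptor, read 10.21 on both control arrays and 7.70 and 8.50 for the deficient arrays.

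Most of the ETS factors read lower in the deficient group. With limma's moderated test on the log2 values, 8 of the 11 probe sets were lower at an unadjusted p under 0.05 and 0 were higher, in a table where 5.25% of all probe sets were lower and 6.64% higher by that rule. After Benjamini-Hochberg adjustment over all probe sets, 0 of 11 passed 0.05, as for 0% of the table, so single genes are given below as values. The same 8 were those whose control and deficient arrays did not overlap downwards, by which rule 14% of all probe sets were lower. The median log2 difference (deficient minus control) of the 11 was −1.21, against 0.15 over all probe sets. The median of the 11 probe sets was 8.79 and 8.53 for the controls and 7.49 and 7.22 for the deficient arrays. Probe sets as bright as the members were lower more often than the table as a whole. Among the 10171 probe sets whose mean level lay in the range of the brighter 10 (6.54 to 9.37), 10.9% were lower at an unadjusted p under 0.05, 23.4% lay apart downwards and the median difference was 0.02. Bulk RNA cannot tell fewer cells of a type from less RNA per cell.

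**Figure D1:**
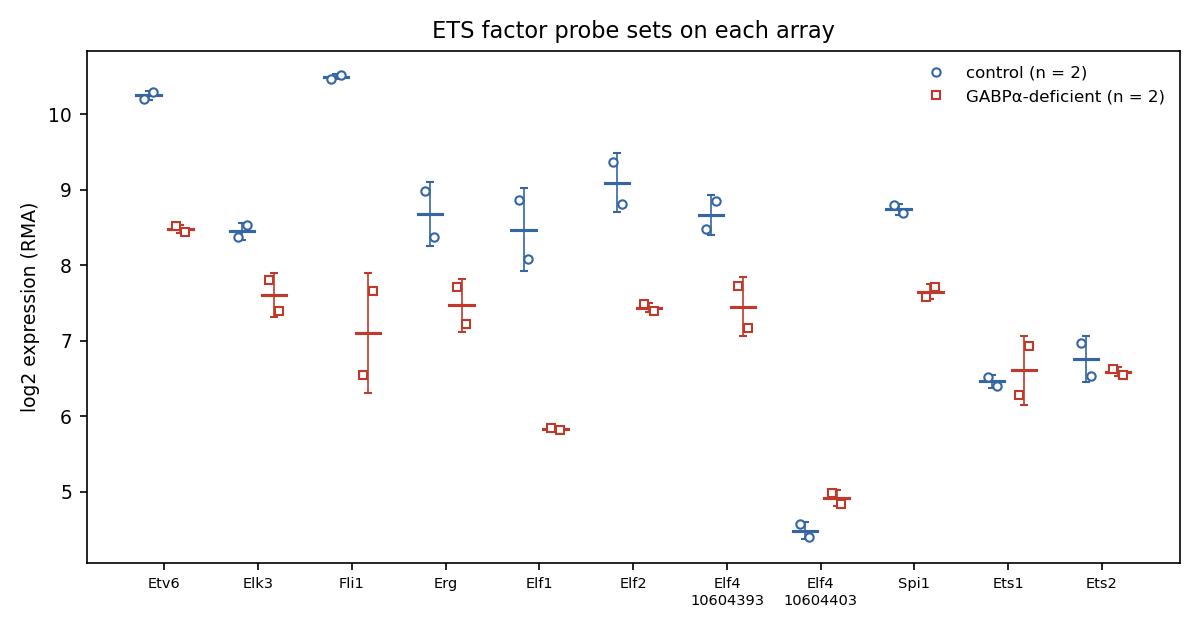
Log2 expression (RMA values, vertical axis) of the 11 ETS factor probe sets on the 2 control arrays (blue circles) and the 2 arrays labelled GABPα-deficient (red squares), with the group mean (line) and SD (bars, n = 2). The groups lie apart downwards for 8 probe sets, overlap for Ets1 and Ets2, and lie apart upwards for the dim second Elf4 probe set. Levels of different probe sets are not comparable.

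Sequence just before the transcription start is shown for Etv6, Elf1 and Elf2, which were lower for the deficient arrays, and for Ets2, whose groups overlapped, to show what the ETS core letters look like in place. For Elf1 and Elf2, which have 2 windows each, the one with more matches is shown. Each is the 250 bases before a RefSeq start, 5′ to 3′ on the gene's strand, from the promoter table of the build GRCm38.p6. Capitals mark GGAA and, for a match on the other strand, TTCC. The Etv6 window lies at chr6:134035450-134035699 (plus strand), that of Elf1 at chr14:79480944-79481193 (plus), that of a second Elf2 start at chr3:51277515-51277764 (minus) and that of Ets2 at chr16:95702157-95702406 (plus).
Etv6: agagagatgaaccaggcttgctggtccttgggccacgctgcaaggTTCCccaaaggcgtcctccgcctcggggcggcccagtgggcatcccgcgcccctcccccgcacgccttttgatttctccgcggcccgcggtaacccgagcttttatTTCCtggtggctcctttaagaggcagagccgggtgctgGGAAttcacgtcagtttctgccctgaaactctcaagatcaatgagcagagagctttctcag
Elf1: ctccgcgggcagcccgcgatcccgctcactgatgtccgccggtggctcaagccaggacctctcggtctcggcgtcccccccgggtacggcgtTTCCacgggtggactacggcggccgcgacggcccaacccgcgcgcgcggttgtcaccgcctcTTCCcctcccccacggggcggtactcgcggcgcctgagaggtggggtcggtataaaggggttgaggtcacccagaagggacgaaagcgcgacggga
Elf2: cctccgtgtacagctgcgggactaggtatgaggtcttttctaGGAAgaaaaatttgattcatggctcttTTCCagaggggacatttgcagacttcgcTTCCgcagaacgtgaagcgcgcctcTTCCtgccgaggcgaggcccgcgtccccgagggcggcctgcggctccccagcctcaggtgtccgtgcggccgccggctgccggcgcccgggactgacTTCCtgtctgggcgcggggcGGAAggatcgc
Ets2: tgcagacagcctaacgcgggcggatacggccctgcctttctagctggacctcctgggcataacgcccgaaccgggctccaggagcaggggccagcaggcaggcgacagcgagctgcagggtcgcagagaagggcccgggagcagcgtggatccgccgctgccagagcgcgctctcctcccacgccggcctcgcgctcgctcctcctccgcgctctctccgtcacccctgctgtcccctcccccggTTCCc

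These windows held GGAA 3 times for Etv6, 2 times for Elf1, 6 times for Elf2 and 1 time for Ets2. The windows not shown held it 0 times for Elf1, 1 time for Elf2, 0, 4 and 2 times for Erg, 6 and 2 times for Elf4 and 2 times for Elk3, so the counts of the lower genes ran both below and above that of Ets2. In all, 7 of the 10 genes had an entry, with 12 windows between them. Fli1, Ets1 and Spi1 had none. Searched on both strands, GGAA stood in 10 of the 12 windows, against 93.4% of all 32851 promoter windows of that length. GGAAG, which contains GGAA, stood in 7 of 12, against 64.1%, and 5 of its matches were in the Elf2 window shown. CCGGAA, the form with 2 C bases before the core that GABP prefers, stood in 0 of 12, against 12.0%. A match is a description of letters and not a binding site, and nothing follows from its absence in so short a window.

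Etv6 encodes a repressor of the TEL subfamily. Its probe set (10542275) read 10.21 and 10.30 for the controls and 8.52 and 8.44 for the deficient arrays. The 2 arrays of each group were within 0.1 of each other, the tightest of the members that were lower, and the groups did not overlap. The group means of 10.25 ± 0.066 (SD, n = 2) and 8.48 ± 0.053 gave a log2 difference of −1.77 (SE 0.14, 95% interval −2.17 to −1.37, adjusted p = 0.173), or a control level 3.42 times that of the arrays labelled deficient. Of all probe sets, 1.74% had a lower difference. Leaving out any 1 array kept the difference between −1.82 and −1.73.

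Elk3 encodes a ternary complex factor, one that sits beside SRF on promoters and represses until it is phosphorylated by MAP kinases. Probe set 10371959 read 8.37 and 8.53 for the controls against 7.81 and 7.40, so the groups lay apart by less than for any other of the 8 members that were lower. The difference was −0.85 (SE 0.21, 95% interval −1.44 to −0.25, unadjusted p = 0.0174, adjusted p = 0.387). Its unadjusted p in limma was 0.0565 without control replicate 1, 0.0853 without control replicate 2 and 0.0519 without deficient replicate 2.

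Fli1 and Erg form a subfamily of close relatives with overlapping roles in stem cell upkeep. Fli1 had the largest difference of the 11 probe sets. Its probe set (10592067) read 10.48 and 10.53 for the controls, and 6.55 and 7.66 for the deficient arrays. The control arrays nearly coincided, while the 2 arrays labelled deficient were more than 1 log2 unit apart, and both lay far below the controls. The means were 10.50 ± 0.035 and 7.11 ± 0.79, a difference of −3.40 (SE 0.43, 95% interval −4.61 to −2.18, adjusted p = 0.251), or a control level 10.5 times the deficient one. Of all probe sets, 0.115% (41) had a lower difference. The value was −2.84 without deficient replicate 1 and −3.95 without deficient replicate 2.

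Erg (10441093) read 8.98 and 8.38 for the controls and 7.72 and 7.22 for the deficient arrays. The arrays were spread within both groups, and the lower control array was still above both deficient ones. The difference was −1.21 (SE 0.31, 95% interval −2.10 to −0.32, unadjusted p = 0.0199, adjusted p = 0.393), a control level 2.32 times the deficient one. Without control replicate 1 it was −0.91 (unadjusted p = 0.0745) and without deficient replicate 2 −0.96 (unadjusted p = 0.0768).

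The ELF subfamily comprises Elf1, Elf2 and Elf4, activators of lymphoid and myeloid genes, of which Elf4 is known to promote entry of stem cells into cycle. For all 3 genes the brighter or only probe set was lower for the deficient arrays. Elf1 (10416657) read 8.86 and 8.09 for the controls against 5.84 and 5.82. The control arrays differed between themselves and the deficient arrays did not, but the gap between the groups exceeded both. The difference was −2.64 (SE 0.31, 95% interval −3.53 to −1.76, adjusted p = 0.235), a control level 6.25 times the deficient one. Elf2 (10498038) read 9.37 and 8.82 against 7.49 and 7.40, again with the wider spread among the controls, and differed by −1.65 (SE 0.24, 95% interval −2.34 to −0.96, adjusted p = 0.280).

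Elf4 was read by 2 probe sets, which disagreed. The brighter one (10604393) read 8.48 and 8.85 for the controls and 7.73 and 7.18 for the deficient arrays, a difference of −1.21 (SE 0.28, 95% interval −1.999 to −0.43, unadjusted p = 0.0133, adjusted p = 0.370). Its unadjusted p was 0.0675 without control replicate 2. The dim one (10604403), annotated to the gene through 1 cDNA, read 4.57 and 4.40 against 4.99 and 4.84, a difference of 0.43 (SE 0.16, 95% interval −0.01 to 0.88, adjusted p = 0.421). Its groups lay apart upwards, as for 38.9% of all probe sets. The difference shrank to 0.23 under cyclic loess, and its 4 values lay near the lower quartile of the arrays (4.68 to 4.86).

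Spi1 encodes PU.1, whose DNA-binding domain is the most divergent of the family. Its probe set (10473809) read 8.79 and 8.69 for the controls and 7.59 and 7.72 for the deficient arrays. Both groups were tight and did not overlap. The difference was −1.09 (SE 0.15, 95% interval −1.51 to −0.67, adjusted p = 0.270), a control level 2.13 times the deficient one, and it stayed between −1.16 and −1.02 with any 1 array left out.

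Ets1 and Ets2, the founding pair of the family and targets of RAS and MAP kinase signalling, were the members without a separation. Their probe sets were dimmer on the controls (means 6.46 and 6.76) than the 8 lower ones, which ran from 8.45 for Elk3 to 10.50 for Fli1. Whether level played a part in the contrast was not tested. Ets1 (10584142) read 6.52 and 6.41 for the controls and 6.28 and 6.94 for the deficient arrays, with one deficient array below and one above both controls. The difference was 0.15 (SE 0.28, 95% interval −0.64 to 0.93, adjusted p = 0.791), and it turned to −0.18 without deficient replicate 2. Ets2 (10437160) read 6.97 and 6.54 against 6.63 and 6.55, both deficient arrays lying between the controls. The difference was −0.16 (SE 0.21, 95% interval −0.75 to 0.43, adjusted p = 0.689), and it turned to 0.05 without control replicate 1. The intervals reach down to −0.64 for Ets1 and −0.75 for Ets2, so neither gene was shown to be unchanged.

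**Figure D2:**
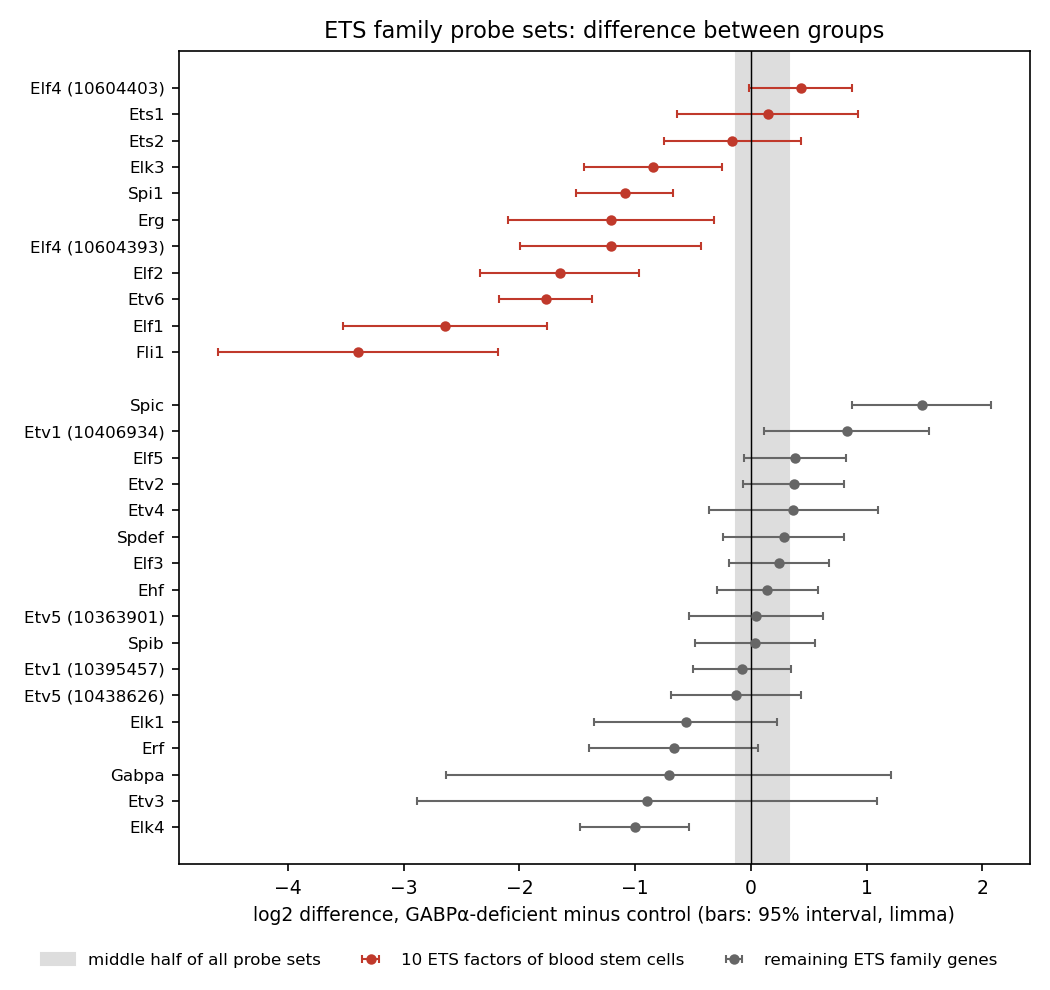
Log2 difference (deficient minus control, horizontal axis) with its 95% interval from limma for the 11 probe sets of the ETS factors of blood stem cells (red) and the probe sets of the remaining ETS family genes (grey). The grey band holds the middle part of all probe sets, from −0.13 to 0.33, and the intervals of 8 red points, from Fli1 at −3.40 to Elk3 at −0.85, lie below 0.

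The 2 ETS genes whose groups overlapped are chromosomal neighbours of 2 that were lower. In the RefSeq gene table of the assembly GRCm38.p6, 0 protein-coding genes lie between Fli1 and Ets1, and 0 between Erg and Ets2. On the controls the Fli1 probe set read 3.95 and 4.12 above that of Ets1. The Erg probe set read 2.01 and 1.84 above that of Ets2. Fli1 differed by −3.40 and Ets1 by 0.15, so the difference of Fli1 was 3.54 log2 units below that of its neighbour (difference of differences −3.54; exact permutation test over arrays, 2-sided p = 0.333). Erg differed by −1.21 and Ets2 by −0.16, a difference of differences of −1.05 (exact permutation p = 0.333). With 2 arrays a group, 0.333 is the smallest p that test can give. The pairs were set with the values known, so that p adds nothing to them.

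The rest of the ETS family was measured for comparison. Of 16 further genes, Gabpa among them, 15 had a single-gene probe set (Fev did not). By unadjusted p, 1 was lower and 2 were higher (all probe sets: 5.25% and 6.64%), and 0 passed the adjusted threshold. The median difference was 0.14, close to the 0.15 of all probe sets, but the direction went with the level. The 6 genes below 0 had control means of 7.38 to 8.11, and the 9 above 0 had control means of 4.46 to 6.66. Among those 6, Elk1 read 8.32 and 7.65 for the controls against 7.43 and 7.42, apart downwards (difference −0.56, SE 0.28). Whether the 10 members differ from these genes as a group was not tested. Elk4, a ternary complex factor related to Elk3, was the one that was lower by unadjusted p. It read 7.42 and 7.33 against 6.25 and 6.50 (difference −1.003, SE 0.17, adjusted p = 0.301).

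Spic, a relative of Spi1 known from iron-recycling macrophages, read 5.72 and 5.28 for the controls and 7.01 and 6.94 for the deficient arrays (difference 1.47, SE 0.21, adjusted p = 0.280). It thus lay on the opposite side from Spi1 on the same arrays. Etv1 read 5.01 and 5.29 against 6.24 and 5.73 on probe set 10406934 (difference 0.83, SE 0.25), while its dimmer probe set 10395457 differed by −0.08. The repressor genes Erf and Etv3 gave −0.67 (SE 0.26, adjusted p = 0.424; −0.39 without control replicate 2) and −0.90 (SE 0.70, adjusted p = 0.548). For Etv3 the value came from 1 array, deficient replicate 1 at 6.24 against 8.13 on replicate 2 and 7.99 and 8.18 on the controls. Without it the difference was 0.04.

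The genes most like Etv6 and Fli1 across the 4 arrays were found by the Euclidean distance between values less each probe set's own mean, among 21778 probe sets of other genes. Nearest to Etv6 were Usp42, a deubiquitinase (distance 0.0732), Atl3 (0.0878), Ufl1 (0.0952), Rsl1 (0.169) and Dnajc18 (0.197), whose differences ran from −1.87 for Dnajc18 to −1.72 for Usp42. Nearest to Fli1 were Meis1, a homeobox factor of stem cells (0.444), Plek, the platelet protein pleckstrin (0.583), the kinase gene Tec (0.627), Ssh2 (0.636) and Sinhcaf (0.739). All 5 of the latter, like Fli1, were lower on deficient replicate 1 than on replicate 2, as Meis1 at 6.66 and 7.65. The search used these same values, so it favoured genes with that order. With 4 arrays such likeness describes little more than the size of the difference.

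The partner factors that share stem cell enhancers with FLI1 and ERG were measured by 11 of 11 genes. By unadjusted p, 7 were lower and 1 was higher (all probe sets: 5.25% and 6.64%). Their median difference was −0.87, and 0 passed the adjusted threshold. Hhex, a homeobox factor, read 10.50 and 10.43 against 8.73 and 8.36 (difference −1.92, SE 0.19, adjusted p = 0.206), and Meis1 differed by −3.01 (SE 0.39). Gata2, the stem cell GATA factor, differed by −0.87 (SE 0.21) and Runx1, the core binding factor of definitive stem cells, by −1.55 (SE 0.39, adjusted p = 0.389). The one that was higher was Tcf3, the E protein E2A, at 0.66 (SE 0.17). Tal1 and Ldb1 also differed upwards, by 0.06 (SE 0.15) and 0.28 (SE 0.29), with overlapping groups. These 3 were chosen after their values were seen.

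Genes known as targets of FLI1 and ERG in megakaryocytes were all below 0 for the 10 of 15 that were measured. By unadjusted p, 5 were lower, as were 5.25% of all probe sets, and 0 were higher. Their median was −0.81, against 0.15 over all probe sets. Itga2b, the integrin CD41, read 8.65 and 9.03 against 7.13 and 6.97 (difference −1.79, SE 0.20, adjusted p = 0.222), the tetraspanin gene Cd9 differed by −1.26 (SE 0.17), Vwf by −0.90 (SE 0.15) and Nfe2 by −1.005 (SE 0.24). The remaining one was the platelet chemokine gene Pf4 at −2.82 (SE 0.78), or −1.76 without deficient replicate 2, named after its value was seen. This list shared 12 genes with the megakaryocyte marker list, 80% of the former and 85.7% of the latter, so the targets cannot be told apart from that cell type.

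Genes known as targets of PU.1 were split. Of 19 measured, 4 were lower and 2 higher at an unadjusted p under 0.05 (all probe sets: 5.25% and 6.64%). Their median was −0.25. Flt3, the receptor that the gate excluded on the surface, differed by −3.03 (SE 0.35, adjusted p = 0.222), Csf3r, the G-CSF receptor, by −1.04 (SE 0.22) and Mpo, myeloperoxidase, by −0.86 (SE 0.20), while Ctss, the protease cathepsin S of antigen-presenting cells, differed by 0.72 (SE 0.14). Ncf4 at −0.42 and the Fc receptor gene Fcgr1 at 0.58 were the others, named after their values were seen.

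Genes known as ETS targets in stem and endothelial cells, 12 of 12 measured, gave 3 lower and 2 higher (all probe sets: 5.25% and 6.64%). Their median was −0.21. Cd34 differed by −3.54 (SE 0.22, adjusted p = 0.169) and Tek, the angiopoietin receptor TIE2, by −1.12 (SE 0.22). The VEGF receptor genes Kdr and Flt1 were on the other side, at 0.82 (SE 0.16) and 0.53 (SE 0.15), the latter at 0.31 (limma, unadjusted p = 0.085) under cyclic loess. Angpt1, the ligand of TIE2, was the third lower gene at −2.76 (SE 0.83), or −1.69 without control replicate 1, named after its value was seen. Of the serum response genes that ternary complex factors are known to control, 0 of 11 were lower and 0 higher in limma by either p, with a median of 0.06. The 4 with the smallest p, Egr2, Mcl1, Egr3 and Nr4a1, differed by 0.46, −0.30, 0.27 and 0.29.

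Erythroid and macrophage markers were higher on the deficient arrays. Of the cell marker lists, only the sorting gate and megakaryocyte ones had a median difference below 0. Erythroid markers were all above 0 for the 18 of 20 measured, 13 of them at an unadjusted p under 0.05 (all probe sets: 6.64%). Their summed linear signal was 5452 and 5336 for the controls and 18005 and 20116 for the deficient arrays. Their median difference was 1.86, against 0.15 over all probe sets, and 15 lay apart upwards. Macrophage markers were above 0 for 16 of 16, 7 of them at an unadjusted p under 0.05. Their median difference was 0.79, and 13 lay apart upwards, where 38.9% of all probe sets did so. Their sum was 1259 and 1418 for the controls and 4345 and 2385 for the deficient arrays. Stromal and endothelial markers gave 6 higher and 2 lower of 18, with sums of 1603 and 1538 against 3551 and 3054. Their median difference was only 0.33, as was the upper quartile of all probe sets, with 13 above 0 and 5 below. The rise in the sums came mostly from Sparc and Sfrp4, which differed by 3.80 (SE 0.24) and 4.09 (SE 0.15). Sparc, at 6.19 and 6.56 against 10.38 and 9.98, was the brightest of the list for the deficient arrays. The sums thus do not stand for the list as a whole. The list of lineage markers gave 0 lower and 1 higher of 7, with sums of 482 and 449 against 408 and 479. Their median difference was 0.27, with 5 above 0 and 2 below. This list also holds Ptprc, which encodes every form of CD45, a protein of stem cells too, and so is not a marker that the gate removes. It was the brightest of the list for the controls, at 7.55 and 7.08 against 5.50 and 6.89 (difference −1.11, SE 0.55). The sums thus do not stand for removed markers alone. The part of these cell types in the lower ETS factor values was not tested.

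**Figure D3:**
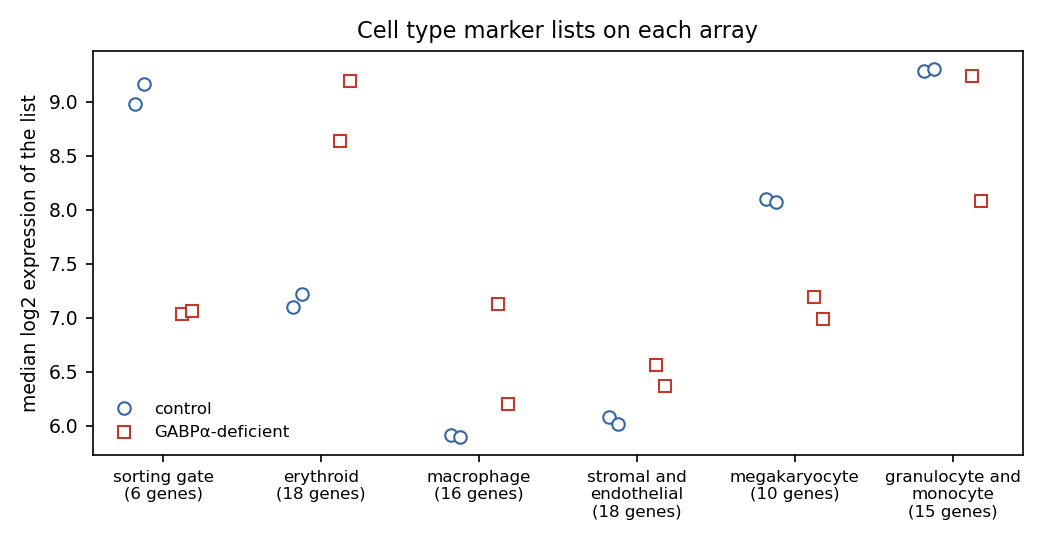
Median log2 expression (vertical axis) of 6 marker lists on each control array (circles) and each array labelled GABPα-deficient (squares), with the number of genes measured. The list labelled sorting gate, which mostly holds other surface genes of stem or progenitor cells, stands at 8.98 and 9.16 on the control arrays against 7.04 and 7.06. The erythroid list stands at 7.10 and 7.22 for the controls against 8.64 and 9.19.

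With each array left out in turn, the 8 lower probe sets all stayed below 0, and 6 to 8 were lower at an unadjusted p under 0.05. Those that missed it were Elk3, Erg and Elf4 (10604393), as given above, while Etv6, Fli1, Elf1, Elf2 and Spi1 passed in every case. The median over the 11 probe sets ran from −1.46 without deficient replicate 1 to −0.96 without deficient replicate 2.

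**Figure D4:**
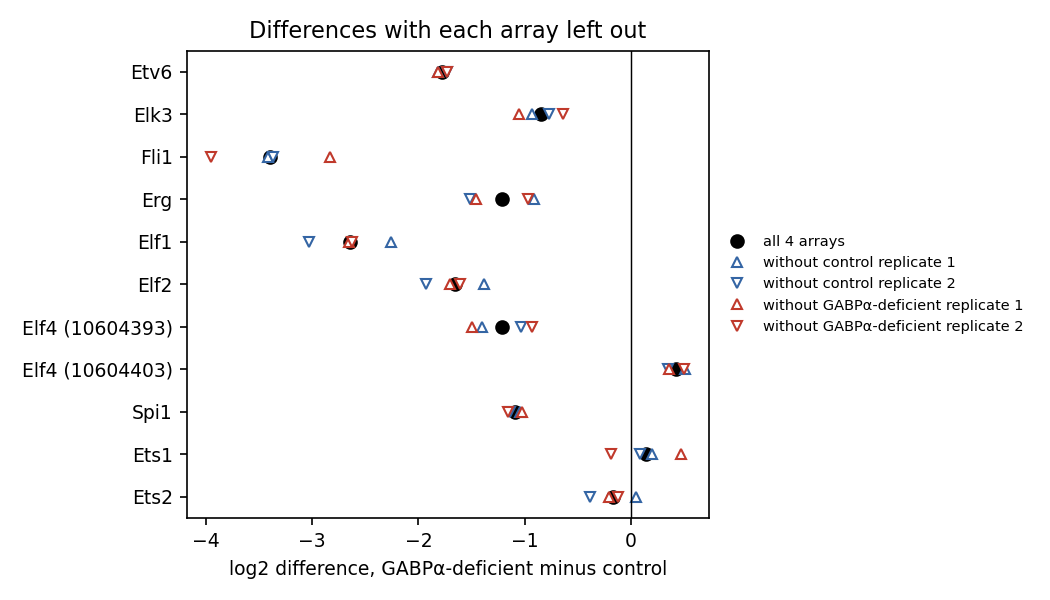
Log2 difference (deficient minus control, horizontal axis) of each ETS factor probe set with all 4 arrays (black) and with each array left out (blue, a control array; red, an array labelled deficient). Etv6 stays between −1.82 and −1.73, Fli1 spans −3.95 to −2.84, and only Ets1 and Ets2 cross 0.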

How the data were processed

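The authors deposited 1 table of log2 expression values, 1 per probe set, for 4 arrays. The submitters' processing notes name RMA, which background-corrects, quantile-normalizes and summarises probes, and Partek, without versions. Quantile normalization is meant to make the arrays' distributions alike, so differences are relative to the rest of the array. The quartiles of the deposited values still differed between the groups, as given above. No source used here gives the genome build or annotation behind the authors' values, and the table holds no detection call. Values ran from 1.98 to 13.67 and were used as deposited.

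Probe sets were named from the platform annotation, matched by Entrez number to the RefSeq gene table of GRCm38.p6. Of 35556, 21789 had 1 symbol, 1621 several and 12146 none. Genotype was fitted over all probe sets with limma 3.58.1 (lmFit, eBayes) in R 4.3.3, with Benjamini-Hochberg adjustment. Figures used matplotlib 3.10.9 in Python 3.11.15. Lists other than the members used, for each gene, the probe set with the highest mean.

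The members and the gene and cell marker lists were chosen with earlier results of these data known. All members and GABP subunits were named, and up to 4 genes with the smallest p in each other list. Any remaining ETS gene could be named (Etv3 and Elk1 were, after their values were seen). In 10 simulations on 35556 probe sets for this comparison, 200 random probe sets of any level were lowered by 1, 2, 3 or 4 log2 units. At an unadjusted p under 0.05 limma found 79.4% of changes of 1 log2 unit, 93.6% of 2 and 97.4% of 3. At an adjusted one it found 0%, 2.6% and 33.4%. The adjusted rates depend on how many probe sets change, so they need not hold for these data. The alternatives were cyclic loess, subtraction of medians, no dim probe sets, eBayes with trend or robust, a replicate block, leaving out each array, and other rules for Elf4's 2 probe sets.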

Additional observations from a re-analysis of the deposited data

How the results depend on the processing

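For the 11 ETS factor probe sets, 2 of 109 values under the alternatives turned sign: Ets1 at −0.18 without deficient replicate 2 and Ets2 at 0.053 without control replicate 1. With an array left out, Ets1 ran from −0.18 to 0.47 and Ets2 from −0.38 to 0.053. The adjusted p of the 11 ran from 0.161 to 0.999. Of the 36 other genes followed, 3 values of 355 turned: Gabpa at 0.0021 and Etv3 at 0.043 without deficient replicate 1, and Gabpb2 at 0.098 without control replicate 1, with ranges over the arrays left out of −1.42 to 0.0021, −1.84 to 0.043 and −0.65 to 0.098. The count of lower ETS factor probe sets was 6 to 8 with an array left out and 8 under the other settings for which it was counted, which leave out the mean over the 2 Elf4 probe sets. Their median was −0.96 to −1.46 with an array left out. With the eBayes trend 1 ETS factor probe set was higher at an unadjusted p under 0.05. Over all probe sets 0 passed the adjusted threshold under each setting, while at an unadjusted p 1865 were lower and 2360 higher. The higher count was 1191 under cyclic loess (2349 lower), 1537 after subtraction of medians (2185 lower), 964 without the dimmer 50% of probe sets and 714 to 2198 with an array left out (714 without control replicate 1, 1053 without control replicate 2). The cause was not tested. The replicate block gave 1666 lower and 1341 higher over all probe sets and the same 8 lower ETS factor probe sets. The numbers are not known to pair the samples. Deviations of same-numbered arrays from their group means correlated at −0.088 across probe sets. With 2 arrays a group, their number limits the precision.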

Other observations

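Further cell type marker lists were read on the same arrays. Over all probe sets 5.25% were lower and 6.64% higher at an unadjusted p under 0.05. The median log2 difference of all probe sets was 0.15 and the upper quartile 0.33. Of the mast cell and basophil markers, 0 of 9 were lower and 2 higher at an unadjusted p under 0.05, with a median log2 difference of 0.72. Of the T and NK cell markers, 0 of 11 were lower and 3 higher, with a median of 0.37. Of the B cell markers, 0 of 9 were lower and 1 higher, with a median of 0.29. Of the granulocyte and monocyte markers, 1 of 15 was lower and 1 higher, with a median difference of 0.25, 8 above 0 and 7 below. The list's median level was 9.28 and 9.30 for the controls and 9.23 and 8.08 for the deficient arrays. The megakaryocyte markers, 10 of 14 measured, gave 4 lower and 0 higher, with a median of −0.71. Gabpb1, a β subunit of GABP, read 7.47 and 6.48 for the controls and 6.19 and 6.41 for the deficient arrays (difference −0.67, SE 0.39, limma adjusted p = 0.478). The value was −0.17 without control replicate 1 and −1.17 without control replicate 2. Gabpb2 read 7.39 and 6.64 against 6.78 and 6.68 (difference −0.28, SE 0.31, adjusted p = 0.648).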
